A study of Mus musculus with 45 samples.

Results

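Blood and lymphatic vessel genes were followed through the mouse uterus as 10 of the 24422 genes in the count table: Pecam1, Cdh5, Kdr, Flt1, Tek, Eng, Vwf and Tfpi for blood vessel endothelium, and Lyve1 and Prox1 for lymphatic endothelium. The rows were taken by gene symbol alone, and all 10 were present. Their levels were compared across 6 groups of 7 mice, formed by genotype and tissue. WT females and Plag1KO females of the outbred CD-1 stock were studied, the latter carrying a germline allele in which lacZ stands in place of the entire Plag1 open reading frame. Plag1 encodes a zinc finger transcription factor. All mice of both genotypes were young and sexually mature. They had received 5 IU pregnant mare serum and, after 2 days, 5 IU human chorionic gonadotropin. The data thus describe a superovulated tract and hold no untreated group. In the study, oocytes and zygotes were taken the morning after the last injection. Uteri were collected during these experiments, with no day stated for them. Superovulated females were mated with WT males unless unfertilised oocytes were wanted, and which applied to these mice is not stated. Each mouse gave 3 samples: an intact horn piece (uterus), mucosa that was scraped off after a horn had been opened (endometrium), and the remaining wall (myometrium).

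Endothelial cells line every vessel and are joined by VE-cadherin (Cdh5) and PECAM-1. Vascular endothelial growth factors act on them through the receptors encoded by Kdr and Flt1, angiopoietins through the receptor encoded by Tek, and ligands of the TGF-beta family through the co-receptor endoglin (Eng). Lymphatic endothelium is set apart by the transcription factor Prox1 and the hyaluronan receptor LYVE-1, and some tissue macrophages carry LYVE-1 as well. The endometrium is one of the few adult tissues in which vessels grow and regress with each reproductive cycle.

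The libraries were sequenced from the 5' ends of transcripts and counted as molecules. Sums over genes ran from 256298 to 1222627 counts per library, and 3 counts, taken as the smallest level a sample could show, equalled 1.23 to 11.7 CPM (counts per 1e6 gene counts of the sample) in the 42 samples of a mouse and tissue. Repeat libraries of 2 mice were summed. Plag1 reached at most 1 count in any sample of either genotype, so the genotype labels could not be checked against it. The tissue labels could be: all 4 epithelial markers were higher and all 4 smooth muscle markers lower in endometrium than in myometrium of each genotype. Smooth muscle RNA differed among the scrapings. The 4 smooth muscle genes used for this (Myh11, Cnn1, Acta2 and Des) summed to 333 to 2922 CPM in 6 WT endometrium samples but 7359 CPM in that of mouse 3, and 186.8 to 808.8 CPM in 6 KO samples but 8082 CPM in that of mouse 13. In bulk tissue, fewer cells of a type and less RNA per cell cannot be told apart.

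**Figure D1:**
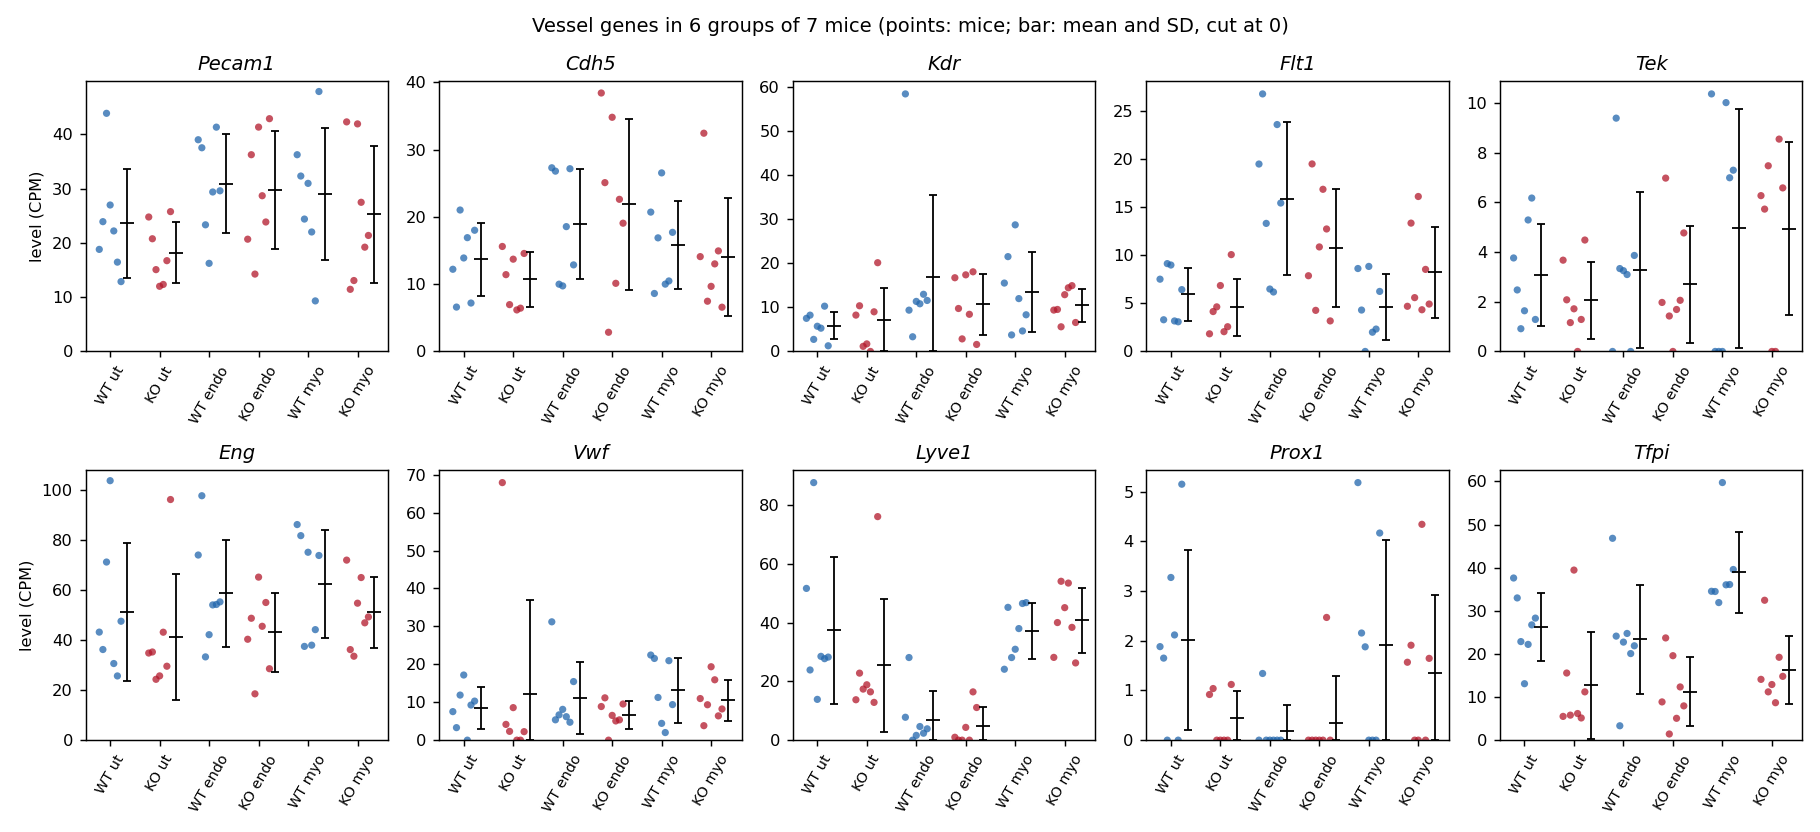
Level of each vessel gene in CPM (vertical axis, linear, with its own scale per panel) in whole uterus (ut), endometrium (endo) and myometrium (myo) of WT (blue) and KO (red) mice. Points are single mice, and the bar at the right of each group is the mean with the SD, cut at 0. Lyve1 is low in both endometrium groups, Flt1 is highest in WT endometrium, and in uterus and myometrium most KO points for Tfpi lie below the lowest WT point.

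Promoter sequences are shown for the VEGF receptor genes among the members, Kdr and Flt1, of which Flt1 was called between layers in WT, for Eng, the member that followed the others most closely, and for Tfpi, the member with the smallest p between genotypes. They are the 250 bases before the annotated start in RefSeq on GRCm38.p6, 5' to 3' on the gene's strand. Entries were found for 6 of the 10 members (8 entries), and those of Pecam1, Cdh5, Vwf and Lyve1 were not analysed here. The hexamer AGGAAG, an ETS-type core as background, was searched on both strands, and matches to it or to its reverse complement CTTCCT are in capitals.
Kdr, chr5:75978456-75978705, minus strand: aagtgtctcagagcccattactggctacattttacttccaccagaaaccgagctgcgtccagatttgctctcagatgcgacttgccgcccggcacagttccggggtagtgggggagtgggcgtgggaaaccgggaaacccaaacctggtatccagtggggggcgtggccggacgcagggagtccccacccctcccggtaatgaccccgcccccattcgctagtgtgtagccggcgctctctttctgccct
Flt1, chr5:147726012-147726261, minus strand: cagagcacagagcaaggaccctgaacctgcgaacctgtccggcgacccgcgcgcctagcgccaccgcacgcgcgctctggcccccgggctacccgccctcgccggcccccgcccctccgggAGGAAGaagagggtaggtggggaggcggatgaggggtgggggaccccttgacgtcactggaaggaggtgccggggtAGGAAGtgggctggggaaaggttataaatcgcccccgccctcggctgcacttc
Eng, chr2:32646345-32646594, plus strand: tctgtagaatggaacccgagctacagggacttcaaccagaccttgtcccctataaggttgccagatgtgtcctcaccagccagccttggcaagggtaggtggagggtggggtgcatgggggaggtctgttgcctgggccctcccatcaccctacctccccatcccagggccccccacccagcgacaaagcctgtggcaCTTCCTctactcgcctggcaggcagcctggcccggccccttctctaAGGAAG
Tfpi, chr2:84474175-84474424, minus strand: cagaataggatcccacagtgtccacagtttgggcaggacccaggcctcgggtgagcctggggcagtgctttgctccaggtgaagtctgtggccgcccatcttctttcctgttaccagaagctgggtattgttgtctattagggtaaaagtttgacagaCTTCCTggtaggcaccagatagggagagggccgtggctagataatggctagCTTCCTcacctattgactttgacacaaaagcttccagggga
The hexamer began 129 and 53 bases before the start in Flt1, 52 and 6 bases before it in Eng, and 92 and 41 bases before it in the Tfpi promoter shown. Tfpi has another entry, not shown, that holds no match. It was found in 3 of the 8 entries, beside 29.5% of all 32851 promoters of this length, and a match is a run of letters rather than a known binding site.

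Between endometrium and myometrium, the lymphatic gene Lyve1 was lower in the endometrium of both genotypes, and the VEGF receptor gene Flt1 was higher in the endometrium of WT mice. In WT mice 2 of 10 members were called at an adjusted p under 0.05 (edgeR's quasi-likelihood test, Benjamini-Hochberg over all tested genes), against 13.2% of the 13227 genes tested. Of these members 1 was higher, against 6.81% of all genes, and 1 was lower, against 6.39%. In KO mice 1 of 10 members was called, against 19.3% of 12969 genes, and it was lower, as were 8.71% of all genes, while 10.6% of genes and 0 members were higher. An unadjusted p under 0.05 was reached by 4 members in WT and 1 in KO, beside 24.8% and 31% of genes. The share of members called was near or below that of genes at large. The members' median log2 fold change was -0.36 in WT and -0.41 in KO, beside 0.01 and 0.08 over all genes.

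Lyve1 showed the widest separation. In WT myometrium it ranged from 24.2 to 46.9 CPM with a median of 38.0, and in KO myometrium from 26.3 to 54.2 CPM with a median of 40.1. In WT endometrium the lowest, median and highest values were 0, 3.86 and 28.2 CPM, and in KO endometrium 0, 0.985 and 16.4 CPM. Fewer than 3 counts stood in 4 of 7 WT and 5 of 7 KO endometrium samples, so the size of the fold change is uncertain. Every KO endometrium sample lay below every KO myometrium sample, and 6 of 7 WT endometrium samples lay below the lowest WT myometrium sample. The log2 fold change was -2.39 ± 0.48 (SE) in WT, 5.24-fold lower in endometrium with an adjusted p of 0.00102, and -2.77 ± 0.54 in KO, 6.80-fold lower with an adjusted p of 0.000654. Position codes A to C labelled 5 WT and 3 KO mice, and codes D to F 2 WT and 4 KO mice. Within codes A to C the Lyve1 log2 fold change was -1.86 in WT and -6.16 in KO. Within codes D to F it was -3.85 and -2.11, with adjusted p values of at most 0.048 in these 4 fits (edgeR).

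The highest endometrial Lyve1 of each genotype stood in the sample with the most smooth muscle RNA. WT mouse 3 had 28.2 CPM of Lyve1 beside 7359 CPM of the 4 smooth muscle genes, and KO mouse 13 had 16.4 CPM beside 8082 CPM. The other 6 WT endometrium samples held 0 to 7.80 CPM and the other 6 KO samples 0 to 11.1 CPM. Without WT mouse 3 the WT difference was -3.51 on the log2 scale (edgeR adjusted p = 5.14e-06), and without KO mouse 13 the KO difference was -4.00. What part of these Lyve1 values came with smooth muscle tissue in the scraping was not tested.

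Prox1, the master regulator of lymphatic fate, sat at the limit of detection. The 7 WT samples of a tissue held 14 counts in all for uterus, 1 for endometrium and 9 for myometrium, and the 7 KO samples 3, 6 and 6. In endometrium 6 of 7 samples of each genotype had 0 counts, and all 6 counts of the KO group came from mouse 13, the endometrium sample with the most smooth muscle RNA and the deepest sample of the series. The layer difference was not called in either genotype (edgeR adjusted p = 0.119 in WT and 0.525 in KO), and differences in Prox1 of less than a few counts were not detectable at this depth.

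Other lymphatic genes from a list of 8 took the direction of Lyve1 where they were called. Of 5 tested in WT, 2 were lower in endometrium: Mmrn1 (multimerin 1, a secreted protein of lymphatic endothelium) at -2.38 ± 0.58 and Reln (reelin) at -3.08 ± 0.81 on the log2 scale. Of 5 tested in KO, 2 were lower, Mmrn1 at -3.36 ± 0.62 and Pdpn (podoplanin, also made by stroma) at -1.46 ± 0.44. Mmrn1 averaged 2.10 ± 3.36 CPM in WT endometrium and 13.5 ± 5.90 CPM in WT myometrium (SD, n = 7). The chemokine genes Ccl21a and Ccl21b were listed at 0 in every sample. Flt4, the receptor for VEGF-C and VEGF-D that marks lymphatic endothelium, was lower in WT endometrium at -2.44 ± 0.67 (adjusted p = 0.0147, edgeR), with means of 1.46 ± 2.16 CPM there and 10.1 ± 9.20 CPM in myometrium.

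Because macrophages can carry LYVE-1, macrophage and leukocyte genes were read beside it. In WT, 3 of 7 tested were lower in endometrium: F13a1 at -2.28 ± 0.62, Mrc1 (the mannose receptor of tissue macrophages) at -1.27 ± 0.40 and Csf1r at -0.98 ± 0.32 on the log2 scale. In KO, Mrc1 was lower at -1.50 ± 0.46 and Cd68 higher at 1.68 ± 0.44, of 8 tested. The summed level of the 8 genes ranged from 71.5 to 177 CPM in WT endometrium and from 79.7 to 167 CPM in WT myometrium, and from 90.7 to 270 CPM and from 95.5 to 192 CPM in the KO layers. How much of the Lyve1 difference came from macrophages was not tested.

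Flt1, whose product binds VEGF-A with high affinity and also exists as a soluble decoy, was called higher in WT endometrium by edgeR in the fit of WT mice. WT endometrium spanned 6.19 to 26.8 CPM with a median of 15.4, and WT myometrium 0 to 8.85 CPM with a median of 4.31. Of the 7 WT myometrium samples, 4 held fewer than 3 counts of Flt1, and the group held 20 counts in all. The fold change is thus taken against a level near the floor. Of 7 WT endometrium samples, 5 exceeded the highest WT myometrium sample. The log2 fold change was 1.69 ± 0.50, 3.22-fold higher with an adjusted p of 0.0233 (edgeR). This call was lost without WT mouse 3, which had the highest endometrial value. In that fit, a leave-out chosen after the values were seen, the log2 fold change was 1.48 and the adjusted p 0.0865 by edgeR. The call held without WT mouse 5 or WT mouse 8, and the remaining WT mice were not left out. Over the alternatives fitted on both sets of position codes together the adjusted p of Flt1 ran from 0.00917 to 0.0865. The WT log2 fold change was 1.43 (adjusted p = 0.236, edgeR) among the 5 mice with codes A to C. It was 2.19 (adjusted p = 0.167, edgeR) among the 2 with codes D to F.

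In KO mice Flt1 spanned 3.18 to 19.5 CPM in endometrium and 4.34 to 16.1 CPM in myometrium, with medians of 10.9 and 5.60. The KO groups overlapped, and the log2 fold change of 0.44 ± 0.43 was not called (adjusted p = 0.525, edgeR). The difference between genotypes in this layer contrast was itself tested: the interaction was -1.26 ± 0.67 with a raw p of 0.0672 and an adjusted p of 0.993 in edgeR's fit of all 4 groups. With both genotypes in a single fit the layer difference of Flt1 was 1.04 (edgeR adjusted p = 0.0188).

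Kdr encodes the main signalling receptor for VEGF-A, and its levels did not separate the layers. WT endometrium ran from 3.33 to 58.5 CPM with a median of 11.4, and WT myometrium from 3.75 to 28.8 CPM with a median of 12.0. A single sample, WT mouse 1, supplied the endometrial maximum, from 15 counts. KO endometrium ran from 1.59 to 18.1 CPM and KO myometrium from 5.60 to 14.9 CPM. The log2 fold changes were 0.12 ± 0.49 in WT, with a 95% interval of -0.84 to 1.08, and 0.07 ± 0.42 in KO, with an interval of -0.74 to 0.88. Both intervals are wide around 0.

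**Figure D2:**
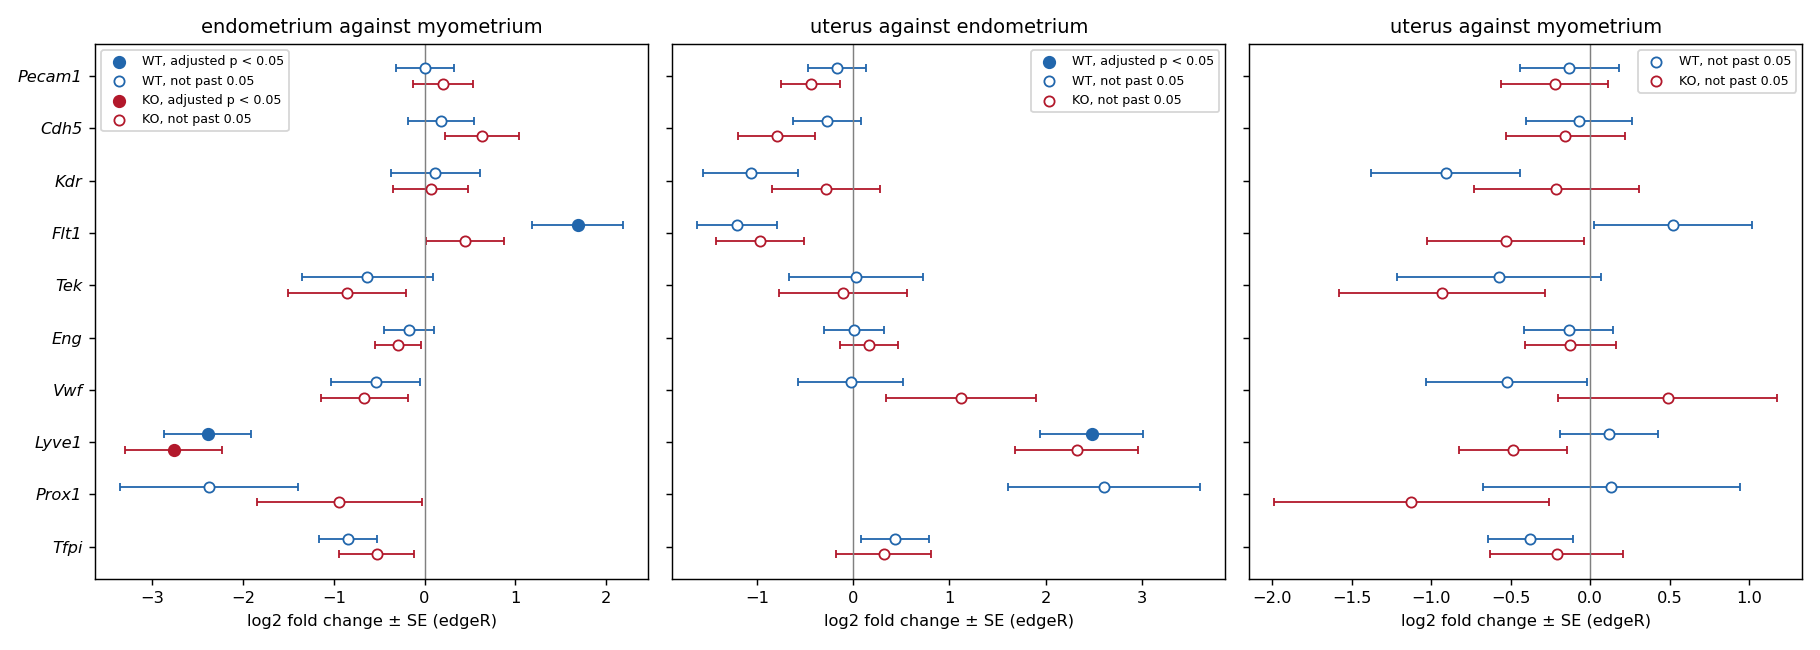
Log2 fold change (horizontal axis, edgeR) with its SE for each vessel gene between tissues, in WT (blue) and KO (red), 7 mice per group. Filled points passed an adjusted p of 0.05 and open points did not, and Prox1 was below the expression filter for uterus against endometrium in KO. Lyve1 is to the left of 0 for endometrium against myometrium and to the right for uterus against endometrium in both genotypes.

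The junction genes, which mark endothelium of all vessels, were not called between layers in either genotype. Pecam1 averaged 30.9 ± 9.08 CPM in WT endometrium and 29.0 ± 12.1 CPM in WT myometrium, and 29.7 ± 10.9 and 25.3 ± 12.7 CPM in the KO layers (SD, n = 7). Its log2 fold change was 0.01 with an interval of -0.62 to 0.63 in WT and 0.20 with an interval of -0.45 to 0.86 in KO. Cdh5 averaged 18.9 ± 8.18 CPM in WT endometrium against 15.8 ± 6.56 CPM in WT myometrium, and 21.9 ± 12.7 against 14.0 ± 8.74 CPM in KO. The Cdh5 layers overlapped in both genotypes.

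Eng, the TGF-beta co-receptor mutated in a hereditary vessel disorder, averaged 58.8 ± 21.4 CPM in WT endometrium, 62.5 ± 21.6 CPM in WT myometrium, 43.2 ± 15.8 CPM in KO endometrium and 51.2 ± 14.1 CPM in KO myometrium. The layers overlapped in both genotypes, with log2 fold changes of -0.17 ± 0.28 and -0.29 ± 0.26. In the annotation of the counted build, NCBIM37, Eng lies at 2:32502115-32538189 and overlaps Ak1 on its own strand and Fpgs on the opposite strand, so a part of its counts could belong to those genes. Tek, the angiopoietin receptor, was sparse, with group means of 2.06 to 4.95 CPM and samples at 0 in 5 of 6 groups. Vwf, the carrier protein of clotting factor VIII that endothelium stores and secretes, averaged 11.1 ± 9.57 CPM in WT endometrium, 13.2 ± 8.53 CPM in WT myometrium, 6.64 ± 3.70 CPM in KO endometrium and 10.6 ± 5.41 CPM in KO myometrium. Neither Tek nor Vwf was called between layers in either genotype.

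Tfpi encodes tissue factor pathway inhibitor, the protein by which endothelium restrains the start of coagulation. WT endometrium ranged from 3.33 to 46.8 CPM with a median of 22.7, and 6 of its 7 samples lay below the lowest WT myometrium sample, a group that ran from 31.9 to 59.7 CPM with a median of 36.0. The WT log2 fold change of -0.84 ± 0.32 missed the threshold by edgeR (adjusted p = 0.0859) and passed it by DESeq2 (adjusted p = 0.0305). KO endometrium ranged from 1.43 to 23.7 CPM and KO myometrium from 8.68 to 32.5 CPM, with a log2 fold change of -0.53 ± 0.41 and an adjusted p of 0.417 by edgeR. With both genotypes in a single fit the difference was -0.72 (edgeR adjusted p = 0.0289).

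To make the layer differences depend less on library scaling, each member was read as its log2 ratio to Pecam1 in the same sample (0.5 added to each count). Endometrium was then compared with myometrium of the same mouse. The Flt1 ratio was 1.63 ± 1.22 higher in endometrium in WT (SD, n = 7 mice) and higher in 7 of 7 mice, while in KO the mean difference was -0.01 ± 1.27 and 3 of 7 mice were higher. The Lyve1 ratio was lower in endometrium in 7 of 7 WT and 7 of 7 KO mice, with mean differences of -3.05 ± 1.71 and -4.27 ± 2.32. For Cdh5 the mean differences were 0.06 ± 0.73 and 0.16 ± 1.56, and for Eng -0.25 ± 0.71 and -0.57 ± 0.76. The Tfpi ratio fell in 6 of 7 WT and 5 of 7 KO mice, with means of -1.08 ± 1.25 and -1.03 ± 1.20. These ratios are a description, since they share the Pecam1 count as divisor. Where a count was 0, the ratio was set by the added 0.5 and the Pecam1 count. This held for Lyve1 in 1 WT and 3 KO endometrium samples and for Flt1 in 1 WT myometrium sample.

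**Figure D3:**
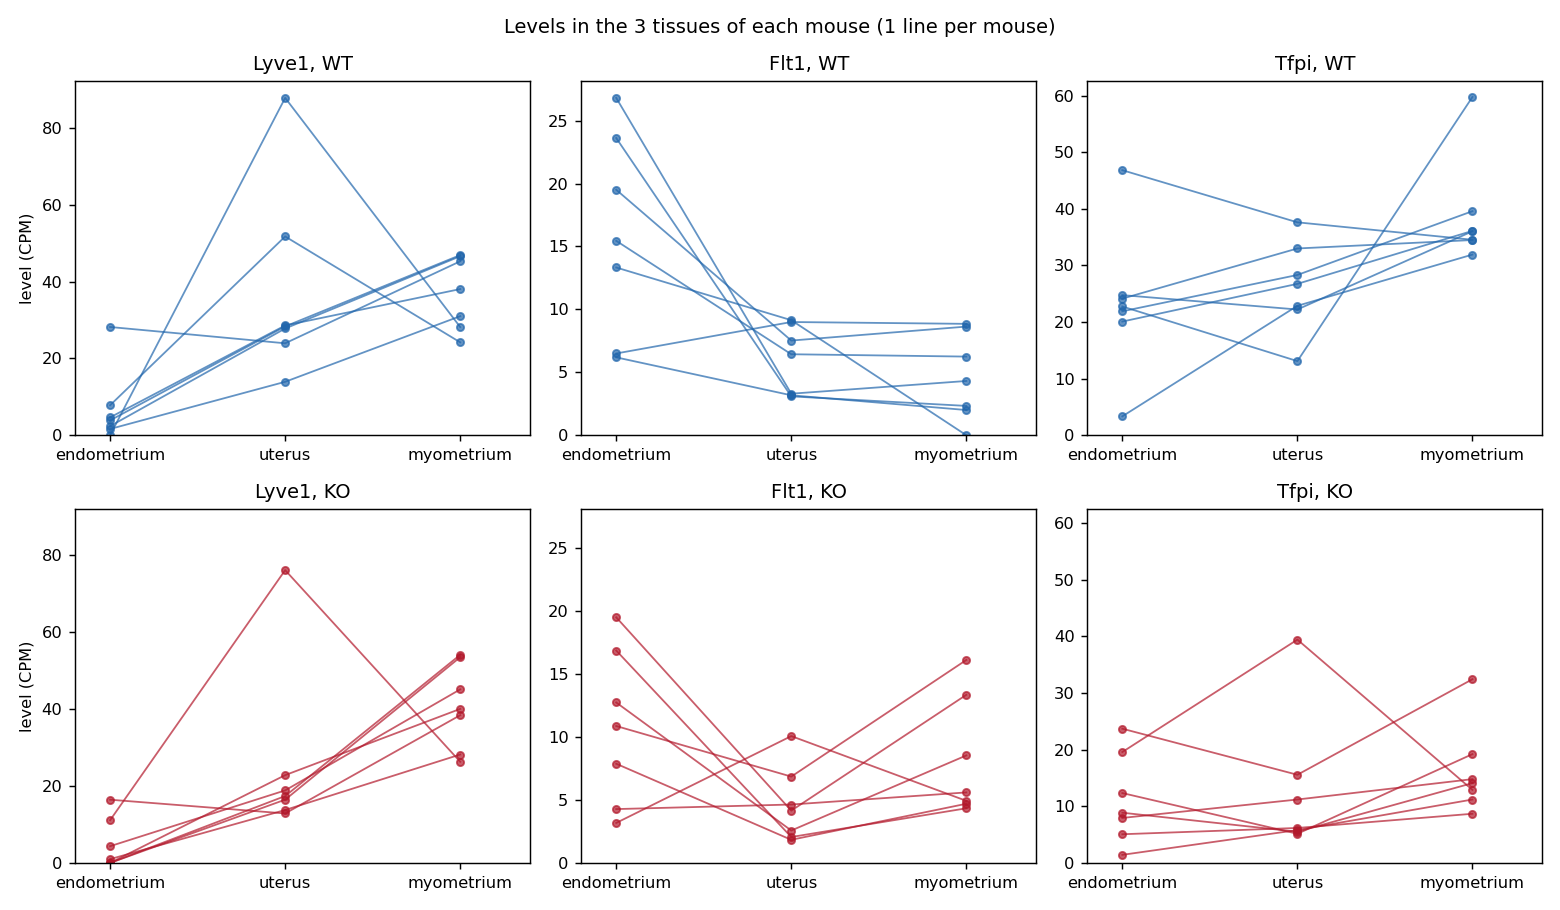
Levels of Lyve1, Flt1 and Tfpi in CPM (vertical axis, linear, shared within a gene) in the endometrium, uterus and myometrium of each mouse, with 1 line per mouse, WT above and KO below. Lyve1 is higher in myometrium than in endometrium in every line, Flt1 falls along most WT lines, and the KO lines of Tfpi mostly lie below 20 CPM.

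Whole uterus, which holds both layers and the serosa, differed from endometrium in Lyve1. Between uterus and endometrium of WT mice, 1 of 10 members was called, Lyve1, against 1.6% of 13091 genes (1.05% higher and 0.55% lower in uterus), and 4 members had an unadjusted p under 0.05 against 15.1% of genes. It was higher in uterus by 2.48 ± 0.54 on the log2 scale, 5.58-fold (adjusted p = 0.0202, edgeR). Without WT mouse 8 the value was 2.41 with an adjusted p of 0.0525, also by edgeR. Fitted by position code, the WT Lyve1 difference was 2.275 with codes A to C (5 mice) and 3.272 with D to F (2 mice). Neither fit called it (edgeR adjusted p = 0.123 and 0.576). In KO mice 0 of 9 members tested were called against 1.25% of 12961 genes (0.926% higher and 0.324% lower), and Lyve1 was higher by 2.32 ± 0.64 with an adjusted p of 0.0727 (edgeR), while 2 members had an unadjusted p under 0.05, against 14.4% of genes, and DESeq2 called 1, Lyve1. With the mouse as a replicate block, which pairs the tissues of an animal, the KO difference was 2.77 with an adjusted p of 0.00107, and without KO mouse 13 it was 3.56 with an adjusted p of 0.00564 (both edgeR). Over the alternatives fitted on all position codes together the KO adjusted p ran from 0.000454 to 0.155, and within codes A to C and D to F it was 0.0049 and 0.531 (edgeR).

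Lyve1 in uterus ranged from 13.9 to 87.8 CPM with a median of 28.3 in WT and from 12.9 to 76.2 CPM with a median of 17.4 in KO. The uterus samples with the most Lyve1, WT mouse 5 and KO mouse 14, were also those with the most smooth muscle RNA of their groups, at 9566 and 13220 CPM over the 4 genes. Mmrn1, Flt4 and Reln also summed highest there, at 36.6 and 37.0 CPM. Mrc1 and F13a1 summed to 8.23 and 5.60 CPM there, beside group maxima of 30.1 and 32.9 CPM. WT mouse 1 had the next highest Lyve1 of WT uterus, 51.7 CPM. The WT maximum of Mrc1 and F13a1 stood in that sample, beside 6147 CPM of smooth muscle genes and 16.9 CPM of Mmrn1, Flt4 and Reln. Which cells the uterine Lyve1 came from was not tested. Flt1 was 2.31-fold lower in uterus than in endometrium of WT mice and 1.96-fold lower in KO mice, with log2 fold changes of -1.21 ± 0.42 and -0.97 ± 0.46, neither called (adjusted p = 0.155 and 0.33, edgeR). With both genotypes in a single fit this Flt1 difference was called (adjusted p = 0.0187, edgeR). Kdr was lower in WT uterus than in WT endometrium by -1.07 ± 0.50 on the log2 scale (edgeR adjusted p = 0.308). Between uterus and myometrium 0 of 10 members were called in WT, where 12% of 13104 genes were (6.73% higher and 5.32% lower in uterus), and 0 of 10 in KO, where 14.1% of 12970 genes were (8.03% higher and 6.06% lower). In both of these edgeR fits 0 members had an unadjusted p under 0.05, against 27.1% and 28.2% of genes, and the DESeq2 fits also called 0.

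**Figure D4:**
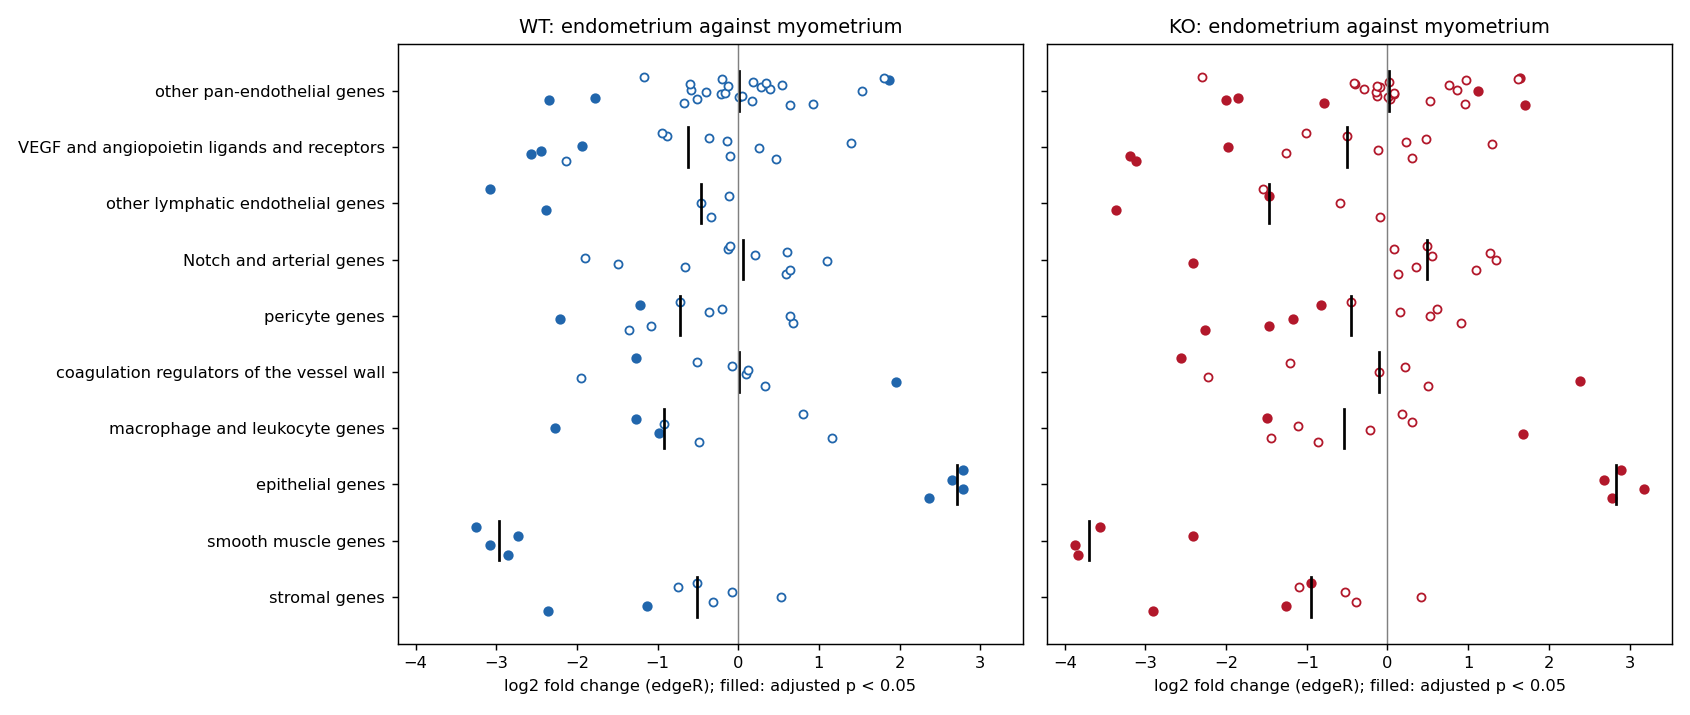
Log2 fold change of endometrium against myometrium (horizontal axis, edgeR) for every tested gene of 10 lists in WT (left, blue) and KO (right, red). Each point is a gene, filled where its adjusted p was under 0.05, and the black bar is the median of the list. Epithelial genes lie to the right and smooth muscle genes to the left, while pan-endothelial genes scatter around 0 with medians of 0.01 and 0.02.

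Wider vessel lists were laid beside the members in the endometrium against myometrium comparison. Of 25 other pan-endothelial genes, 1 was higher and 2 were lower in WT endometrium, and 3 were higher and 3 lower in KO. Over all genes 6.81% were higher and 6.39% lower in WT, and 10.6% and 8.71% in KO, so these counts are near the background, and the shares apply to the other lists as well. Sox17, a transcription factor of arterial endothelium that uterine epithelium also expresses, was higher in WT by 1.87 ± 0.43 on the log2 scale. Cldn5, the endothelial tight junction claudin, was lower by -2.34 ± 0.39 in WT and was also called lower in KO, where the SE was 0.32. Ecscr, an endothelial surface protein, was lower by -1.78 ± 0.48 and -1.86 ± 0.51. Median log2 fold changes of this list were 0.01 in WT and 0.02 in KO.

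Among 12 ligands and receptors of the VEGF and angiopoietin systems, 3 were lower in WT endometrium and 3 of 11 tested in KO, and 0 were higher in either. Figf, the gene for VEGF-D, was lower by -2.57 ± 0.37 in WT and -3.20 ± 0.37 in KO. It averaged 20.6 ± 14.8 CPM in WT endometrium and 118 ± 59.8 CPM in WT myometrium, and 16.2 ± 10.3 against 164 ± 90.0 CPM in KO (SD, n = 7). Nrp2, a co-receptor for VEGF-C, was lower by -1.94 ± 0.39 and -1.97 ± 0.34. The third called gene was Flt4 in WT and, in KO, Angpt1, the activating ligand of the Tek receptor, at -3.11 ± 0.95 and close to the detection limit. The list median was -0.62 in WT and -0.50 in KO, beside 0.01 and 0.08 over all genes.

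Lists for pericytes, coagulation and other cell types were counted in the same way. Of 9 pericyte genes, 2 were lower in WT endometrium and 4 in KO, beside 6.39% and 8.71% of all genes, with Kcnj8 at -2.21 ± 0.33 and Pdgfrb, the receptor that recruits pericytes, at -1.22 ± 0.29 in WT. Some of these are also made by smooth muscle and stroma, and in the same comparison 4 of 4 smooth muscle genes were lower (Myh11 at -3.25, Cnn1 at -3.08, Acta2 at -2.85) and 2 of 7 stromal genes were lower in WT (Col1a1 at -2.35, Dcn at -1.13). Among 8 tested coagulation regulators in WT, F3 (tissue factor, the trigger that Tfpi restrains) was higher by 1.96 ± 0.42 and Thbd (thrombomodulin) lower by -1.27 ± 0.40, and among 7 in KO the same genes moved by 2.39 ± 0.52 and -2.56 ± 0.36. F3 is also expressed by epithelium, and 4 of 4 epithelial genes were higher (Epcam at 2.79, Krt8 at 2.78 and Krt18 at 2.65 in WT). Of Notch and arterial genes, 0 of 10 were called in WT (edgeR, with 0 at an unadjusted p under 0.05) and 1 of 9 in KO, the gap junction gene Gja5 at -2.41 ± 0.65. Alas2 was the only red cell gene tested and was not called (0.98 ± 0.82 in WT), and 6 globin genes were listed at 0 in every sample. Mesothelial genes numbered 0 called of 4 in WT and 2 in KO, Upk3b at -2.71 and Msln at -2.35. Of 4 genes on the adipocyte list, Fabp4 was lower by -2.60 in WT and -3.61 in KO. Adipoq and Plin1 of that list had 0 counts in every KO endometrium and KO myometrium sample.

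Between genotypes, no vessel gene passed the threshold in any tissue. In edgeR's fits 0 of 10 members were called for uterus, 0 of 9 for endometrium and 0 of 10 for myometrium, beside 0% of the 12959, 13004 and 12991 genes tested. At an unadjusted p under 0.05 the same member, Tfpi, stood in each tissue, beside 5.64%, 5.2% and 4.22% of all genes. DESeq2 also called 0 members in each tissue. For the other members the log2 fold changes of KO against WT ran from -1.64 to 0.66 in uterus, from -0.50 to 0.27 in endometrium and from -0.33 to 0.75 in myometrium. The member medians were -0.27, -0.36 and -0.21, with a median SE of 0.42, 0.44 and 0.40, beside all-gene medians of -0.05, 0.02 and -0.03.

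Tfpi was lower in KO in all 3 tissues without passing the adjusted threshold in any. In myometrium the KO mice held 11.2, 12.9, 14.1, 14.8, 19.2, 8.68 and 32.5 CPM, and the WT mice 31.9, 34.5, 34.5, 36.0, 36.1, 39.6 and 59.7 CPM. Only KO mouse 4 reached the WT range, and the log2 fold change was -1.25 ± 0.29, 2.37-fold lower, with a raw p of 0.000121 and an adjusted p of 0.535 (edgeR). In uterus the KO mice ranged from 5.15 to 39.5 CPM with a median of 6.17, and WT mice from 13.1 to 37.6 CPM with a median of 26.7. Here 5 of 7 KO samples lay below the lowest WT sample and mouse 9 lay above the highest, and the log2 fold change was -1.07 ± 0.40 with an adjusted p of 0.713 (edgeR). In endometrium KO mice ranged from 1.43 to 23.7 CPM with a median of 8.87, and WT mice from 3.33 to 46.8 CPM with a median of 22.7. The log2 fold change there was -0.95 ± 0.44 with an adjusted p of 0.947 (edgeR).

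The tissues of a mouse are not independent, so the 3 were also summed per mouse, a comparison added after the values were seen. Summed Tfpi averaged 28.6 ± 5.07 CPM in WT and 13.3 ± 8.00 CPM in KO (SD, n = 7), ranging from 22.3 to 37.9 and from 5.72 to 26.6 CPM. Among KO mice, 5.72, 6.78, 8.75, 11.3, 11.7 and 22.2 CPM lay below the lowest WT mouse, and 26.6 CPM in mouse 9 lay inside the WT range. The sum weights each tissue by its depth. With the plain mean of the 3 tissue CPM values, the lowest WT mouse stood at 19.4 CPM. KO mice 4 and 9 then lay above it, at 23.9 and 24.0 CPM, and the other KO mice ran from 6.14 to 12.2 CPM. The log2 fold change was -1.09 ± 0.28 with a raw p of 0.000831, rank 16 among 13100 genes, and an adjusted p of 0.636 (edgeR), where 0% of genes were called and 5.81% had an unadjusted p under 0.05. Within position codes A to C the KO differences were -1.43 in uterus, -0.95 in endometrium and -1.08 in myometrium on the log2 scale, and within D to F they were -0.88, -0.93 and -1.34. Relative to Pecam1 in the same sample, the Tfpi log2 ratio was lower in KO by -1.01, -1.04 and -1.09. Tfpi lies at 2:84273012-84316932 on the minus strand of NCBIM37 with 8 annotated starts of coding transcripts, which the gene-level counts do not tell apart.

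**Figure D5:**
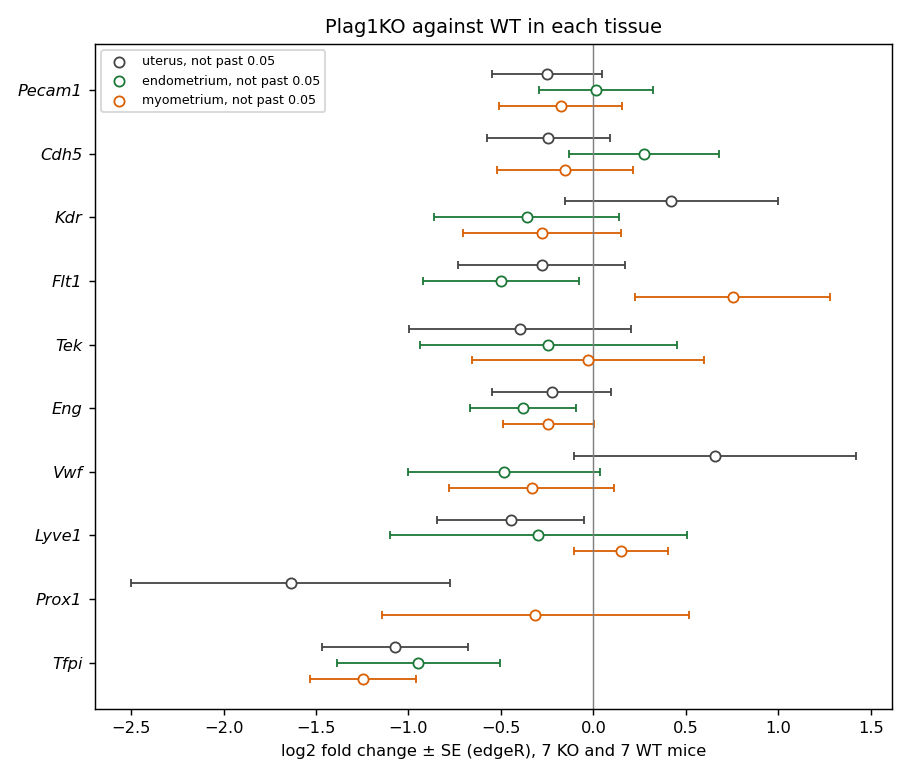
Log2 fold change of KO against WT (horizontal axis, edgeR) with its SE for each vessel gene in uterus (grey), endometrium (green) and myometrium (orange), 7 mice per genotype. All points are open because 0 passed an adjusted p of 0.05. Prox1 was not tested in endometrium, and Tfpi is the gene whose 3 values all lie near -1.

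The remaining members were not called between genotypes, although most fold changes were below 0. Counting Tfpi, 8 of 10 members in uterus, 7 of 9 in endometrium and 8 of 10 in myometrium were lower in KO. All-gene medians were -0.05, 0.02 and -0.03 in the same order. The tissues came from the same mice and members varied together within samples, so these counts are not independent. Pecam1 averaged 23.6 ± 10.1 CPM in WT uterus and 18.2 ± 5.65 CPM in KO uterus, and its intervals across the 3 tissues ran from -0.83 at the lowest to 0.62 at the highest on the log2 scale. Eng was lower in KO by -0.23, -0.38 and -0.24 in uterus, endometrium and myometrium, with intervals that all included 0. Flt1 stood at -0.28, -0.50 and 0.75 in the same order. For Lyve1 the difference was -0.45 ± 0.40 for uterus, -0.30 ± 0.80 for endometrium and 0.15 ± 0.25 for myometrium. In endometrium the Lyve1 values went opposite ways in the position codes. They were -3.92 ± 1.28 within A to C (5 WT and 3 KO mice) and 1.56 ± 1.07 within D to F (2 WT and 4 KO mice). Neither was called (adjusted p = 0.571 and 0.999, edgeR). KO mouse 13, whose endometrium held the most smooth muscle RNA, belongs to the D to F codes. Prox1 in uterus held 14 counts in WT and 3 in KO (adjusted p = 0.872, edgeR).

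The direction for Vwf in uterus turned on 1 KO sample. KO mouse 2 held 67.9 CPM, 74 of the group's 87 counts, while the other 6 KO mice held 0 to 8.58 CPM and WT mice 0 to 17.2 CPM. The log2 fold change of KO against WT was 0.66 ± 0.76 with that mouse and -1.43 without it. In the same sample Pecam1 stood at 24.8 CPM and Cdh5 at 15.6 CPM there, both within the range of WT uterus.

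The wider lists held 0 called genes in each of the 3 genotype comparisons, beside 0% of all genes. At an unadjusted p under 0.05 (edgeR), 4 of 25 other pan-endothelial genes stood in uterus, 4 of 24 in endometrium and 4 of 25 in myometrium, beside 5.64%, 5.2% and 4.22% of all genes. Their directions were mixed in uterus and endometrium, and those in myometrium are not given here. In KO uterus Ecscr (-1.697) and Aplnr (-0.943) were lower, and Tal1 (2.576) and Gpihbp1 (1.177) higher. In KO endometrium Sox17 (-1.12) and Aplnr (-1.017) were lower, and Sox7 (1.045) and Icam2 (0.778) higher. The VEGF and angiopoietin list held 0 in each tissue. No gene-specific difference was called by the genotype by layer interaction either, where 0 of 10 members and 0% of 14314 genes passed in edgeR and 0 members had an unadjusted p under 0.05, against 4.6% of genes.

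Ordering the 6 groups by mean level gave few steps larger than the spread. Only for Tfpi did neighbours in the order differ by more than the larger of their SDs, at the step from WT myometrium (38.9 ± 9.47 CPM) to WT uterus (26.3 ± 7.96 CPM). For Lyve1 the order ran from KO myometrium (40.8 ± 11.1 CPM) through WT uterus (37.4 ± 24.9), WT myometrium (37.2 ± 9.46) and KO uterus (25.5 ± 22.6) to WT endometrium (6.92 ± 9.69) and KO endometrium (4.70 ± 6.58). Each step was within the SD of its neighbours. For Flt1 the order was WT endometrium, KO endometrium, KO myometrium, WT uterus, WT myometrium and KO uterus, from 15.9 ± 7.97 down to 4.60 ± 2.99 CPM.

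The members varied together to a limited degree within groups. Over the 42 samples, after each group's mean was subtracted from log2 CPM, the 15 pairs among Pecam1, Cdh5, Kdr, Flt1, Tek and Eng had Pearson correlations of -0.11 to 0.60 with a median of 0.32. Pecam1 with Eng gave 0.60, Flt1 with Eng 0.53 and Cdh5 with Tfpi 0.52. Eng had the highest correlation with the mean of the other core genes, 0.62, and Tek the lowest, -0.09, at its few counts per sample. These points share libraries, depth and the mix of cells in a scraping, so the correlations are descriptions.

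Of 5045 genes with a mean log2 CPM of at least 4, those that most resembled the mean of the 6 core genes in these deviations were Emcn (endomucin, an endothelial sialomucin) at r = 0.75, Ccnd1 (cyclin D1) at 0.72, Tspan18 at 0.70 and Podxl (podocalyxin) at 0.69. Prelp at 0.67, Fkbp10 at 0.67, Slc43a3 at 0.66 and Procr (the endothelial protein C receptor) at 0.65 followed. The median over all ranked genes was 0.06. Emcn and Procr belong to the pan-endothelial and coagulation lists, and the other 6 were on none of the lists.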

How the data were processed

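RNA from whole uterus, endometrium and myometrium of 7 WT and 7 Plag1KO mice was measured by STRT RNA-seq, in which transcript 5' ends are tagged with molecular identifiers and all libraries are sequenced as a pool. The values used are raw counts per gene as the authors deposited them. Per the study's methods, reads were filtered, split by barcode, collapsed by identifier, trimmed, aligned to mm9 with TopHat and counted with Homer over UCSC gene models and ERCC spike-ins, while the submitters' processing notes name HTSeq. Versions, use of strand and treatment of multi-mapping reads are not given in the sources used here.

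Repeat libraries of a mouse and tissue (3 of KO mouse 13 endometrium, 2 of WT mouse 12 myometrium) were summed, giving 42 samples. CPM values divide by the sum over 24422 genes, without the 92 spike-ins. Groups were compared with edgeR 4.0.16 in R 4.3.3 (quasi-likelihood F test, TMM factors, a filter keeping genes that reach 1 CPM in 5 or more samples, Benjamini-Hochberg adjustment over all genes of a fit, threshold 0.05), tested on simulated data first. SDs are over mice, and 95% intervals are the estimate with its SE times the normal quantile. The main fits used only the groups compared. The tissues of a mouse share its number in the labels, so the pairing comes from the animal, and fits with the mouse as a block were alternatives. Others were DESeq2 1.42.0, RLE and spike-in scaling, filters, covariates and leaving out mice. Intervals and floors cover counting and sampling error only.

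All 10 members were always named. Of other lists, up to 3 called genes with the largest fold change between layers were named by rule, and any others were named after their values were seen. The members and lists were chosen with earlier results of these data known. Gene positions are from the NCBIM37 annotation (the mm9 assembly), and promoter sequences from RefSeq on GRCm38.p6, with no conversion between builds. Tables were handled in Python 3.11.15.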

Additional observations from a re-analysis of the deposited data

Results flagged for a closer look

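Within each of the 60 groups of 7 values (10 genes in 6 groups), the highest or lowest sample was compared with its nearest neighbour by Dixon's ratio on log2(CPM + 1), and 7 values from 6 samples stood apart, where chance gives about 5% of groups. KO mouse 14 stood high in uterus for both Eng, at 6.61 (96.4 CPM, the others 24.4 to 43.2), and Lyve1, at 6.27 (76.2 CPM, the others 12.9 to 22.8). The same sample held the most smooth muscle RNA and the highest sum of Mmrn1, Flt4 and Reln of its group. Vwf was at 0.0 in the endometrium of KO mouse 6. Prox1 stood at 1.23 in WT mouse 3 endometrium, from 1 count, and at 1.79 in KO mouse 13 endometrium, from 6 counts, where the other 6 mice of each group had 0 counts, so that any count above 0 would have stood apart and both values say nothing beyond that. Tfpi stood low at 2.12 in WT mouse 5 endometrium, from 1 count (3.33 CPM, the others 20.1 to 46.8), and high at 5.92 in WT mouse 7 myometrium (59.7 CPM, the others 31.9 to 39.6).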

How the results depend on the processing

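Lower Lyve1 in endometrium than in myometrium was called in both genotypes under every alternative run and within both sets of position codes. Higher Flt1 in WT endometrium was called under all alternatives except leaving out WT mouse 3. It was called in neither set of position codes fitted by itself, of 5 and 2 WT mice (adjusted p = 0.236 and 0.167, edgeR). Tfpi was lower in KO in each tissue under every alternative and called under none, with adjusted p values (edgeR and DESeq2, fits within position codes not counted) of 0.26 to 0.856 in uterus, 0.628 to 1.0 in endometrium and 0.237 to 1.0 in myometrium. Members low in counts (Tek, Prox1, Vwf) and members near 0 change are limited by depth, and the cause of the changes below was not tested. Numbers of genes tested are not given for the alternative fits below. Their member counts are therefore not set against a share of all genes. DESeq2 called 1 gene for KO against WT in endometrium, 474 for uterus against endometrium in WT and 431 in KO with 1 member. It turned the direction of Vwf in KO against WT in uterus (-1.258), in uterus against endometrium in KO (-0.845) and in uterus against myometrium in KO (-1.448), of Pecam1 (-0.021) and Tek (0.002) in KO against WT in endometrium and myometrium, and of Eng in uterus against endometrium in WT (-0.015). RLE size factors turned Pecam1 in KO against WT in endometrium (-0.008) and Eng in uterus against endometrium in WT (-0.014). Spike-in scaling moved the median of all genes by -0.374 and 0.272 for KO against WT in uterus and endometrium, 0.21 and 0.575 for endometrium against myometrium in WT and KO, 0.53 and -0.141 for uterus against endometrium, 0.75 and 0.416 for uterus against myometrium, and 0.353 for the interaction. The values that turned are given without subtracting those medians. They were Kdr 0.083 in KO against WT in endometrium and Eng 0.089 and 0.229 between layers in WT and KO. In uterus against endometrium in WT they were Pecam1 0.386, Cdh5 0.27 and Vwf 0.601. For uterus against myometrium they were Pecam1 0.673, Cdh5 0.693, Tek 0.075, Eng 0.644, Vwf 0.186 and Tfpi 0.312 in WT and Pecam1 0.256, Cdh5 0.278, Kdr 0.236, Eng 0.38, Lyve1 0.047 and Tfpi 0.216 in KO, and for the interaction Kdr 0.385, Tek 0.045, Eng 0.14 and Vwf 0.312. This scaling called 1 gene for KO against WT in myometrium, 518 and 20 for uterus against endometrium in WT and KO, and 4567 for uterus against myometrium in WT. With the mouse as a replicate block, 671 and 475 genes were called for uterus against endometrium in WT and KO, 1 member among them in KO, and 10 for the interaction. Under the block Kdr (-0.103, layers in KO), Eng (-0.057) and Vwf (-0.002) in uterus against endometrium, and Lyve1 (-0.014, WT) and Vwf (-0.597, KO) in uterus against myometrium changed sign, and it changed no other member's call. With both genotypes in a fit, 4029 genes were called between layers with 3 members, 1262 for uterus against endometrium with 2 members and 3952 for uterus against myometrium, and the turned values were Tek -0.022 and Vwf 0.576 (uterus against endometrium, against the WT direction), and Lyve1 -0.16, Prox1 -0.322, Flt1 0.012 and Vwf -0.013 (uterus against myometrium). All 6 groups in a fit called 7 genes for KO against WT in endometrium and 439 and 346 for uterus against endometrium in WT and KO, with 1 member in KO and Vwf at 0.005 in WT. A threshold of 0.1 called 384 and 368 genes there, with 1 member in KO, and 2373 for uterus against myometrium in WT. Without a gene filter 3 genes were called for KO against WT in myometrium. A filter at 10 CPM turned Pecam1 (-0.019 between genotypes in endometrium, -0.001 between layers in WT), Kdr (-0.021, layers in KO) and Eng (-0.06, uterus against endometrium in WT). The position codes as a covariate turned Pecam1 (-0.105, genotypes in endometrium). Using 1 repeat library per mouse turned Pecam1 (-0.028, layers in WT) and, in the interaction, Kdr (0.009) and Tek (0.026), and called 1 member for uterus against endometrium in KO. Not every mouse was left out. Those left out, 1 at a time, were WT mice 3, 5 and 8 and KO mice 2, 13 and 14, chosen for other-tissue genes in a sample or for extreme member values, which gave 1 to 2 members called between layers in WT, 0 to 1 for uterus against endometrium in WT and in KO, with 102 to 221 and 16 to 294 genes, and 1130 to 1512 genes for uterus against myometrium in KO. Ranges over the mice left out that hold a turned value were, between genotypes, Vwf -1.429 in uterus without KO mouse 2 and Pecam1 -0.015 to 0.056 in endometrium. Between layers they were Pecam1 -0.031 to 0.061 and Cdh5 -0.04 to 0.321 in WT and Kdr -0.155 without KO mouse 13. For uterus against endometrium they were Tek -0.208 to 0.647 and Vwf 0.008 to 0.069 in WT, and Eng -0.212 to 0.323 and Vwf -0.881 to 1.452 in KO. For uterus against myometrium they were Lyve1 -0.218 without WT mouse 5, and Eng -0.143 to 0.059 and Vwf -1.586 to 0.582 in KO. For the interaction they were Tek -0.483 to 0.003 and Prox1 -0.922 to 1.467. The leave-outs of WT mouse 3, of KO mice 2 and 14, and of KO mouse 13 in uterus against myometrium were chosen after seeing the data.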
